A study of Mus musculus with 24 samples.

Results

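The regions described here are the peaks of lysine-specific demethylase 1 (LSD1) that were called in control 3T3-L1 cells at day 7 of fat cell differentiation and were absent from the control list of day 0. They were chosen by position: a day 7 peak was taken when it shared not even 1 bp with any day 0 peak of control cells. Of the 8303 control LSD1 peaks at day 7, 5747 (69.2%) met this rule and are called day 7-only peaks below, and the other 2556 (30.8%) overlapped a day 0 peak and are called shared peaks. The control list of day 0 held 3024 peaks, of which 84.4% overlapped a day 7 peak. Each list came from 1 chromatin immunoprecipitation (ChIP-seq) library, so no test between days was possible for the peaks. The read depth of these libraries is not given in the sources used here, so a peak missing from the day 0 list cannot be told apart from a peak that fell under the calling threshold there.

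The cells were mouse 3T3-L1 cells, a fibroblast-like preadipocyte line. Day 7 cells had been induced with 500 µM isobutylmethylxanthine, 10 µM rosiglitazone, 1 µM dexamethasone and 10 µg/ml insulin, and from day 3 were kept in medium with insulin at the same dose and none of the other agents, while day 0 cells were confluent and not yet induced. RNA was sequenced from 3 biological replicates of control cells at day 7 and 3 at day 0, and from 3 replicates at each day of cells labelled as overexpressing LSD1, called labelled cells below. ChIP-seq lists of labelled cells at day 7 (27221 LSD1 peaks) and day 0 (13997) and of the transcription factor Nrf1 at day 7 (1629 peaks) and day 0 (2078) served as independent lists. For Nrf1 at day 7 the sample's title and its genotype label disagree (LSD1 cells or control), and the Nrf1 lists are therefore identified by day alone.

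LSD1, the product of Kdm1a, removes methyl groups from mono- and dimethylated lysine 4 of histone H3. It works with the corepressor CoREST and histone deacetylases, and its substrate marks active promoters and enhancers. During fat cell differentiation, glucocorticoid and cyclic AMP signals induce C/EBP factors, which together with the nuclear receptor PPARγ (encoded by Pparg) switch on the genes of lipid uptake and storage.

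The 6 control RNA libraries held between 27881281 and 37565527 counts over all transcripts. Most adipocyte and preadipocyte markers moved with differentiation. All 8 adipocyte markers were higher at day 7. Their summed level was 10300 to 12100 counts scaled to the library total (counts per 1e6, CPM) at day 7 against 668 to 847 CPM at day 0. Of 8 preadipocyte or fibroblast markers, 7 were lower and 1 was higher, with a summed level of 8450 to 8800 CPM against 34100 to 36700 CPM. Summed macrophage, endothelial and muscle markers each stayed at or below 2.06 CPM in every control library, and Adgre1, Myod1 and Myog had no counts. Kdm1a had 66.1, 67.6 and 74.5 CPM in control cells at day 7, against 79.0, 86.3 and 84.1 CPM at day 0, a log2 change of -0.26 ± 0.10 (SE, adjusted p = 0.0392 in edgeR). In labelled cells it had 54.3, 55.4 and 54.4 CPM at day 7, below all 3 control libraries of that day, and 89.4, 104.2 and 99.01 CPM at day 0, above all 3 control libraries of that day. At day 7 the RNA therefore did not show the higher Kdm1a that the label names, and the labelled libraries are called by their label.

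The sequence under the peaks differed with the distance from genes, so examples are shown for each kind. Letters come from the RefSeq genome GRCm38.p6 (mm10 coordinates), plus strand, 5′ to 3′, without bases of untranslated exons. Capitals mark matches, on either strand, to the motifs of the search described with the motif results. The Rnf220 and Mir22hg windows lie in the centres of 2 of the 3 highest-scoring promoter peaks, at chr4:117289069-117289198 and chr11:75460879-75461178. The Fabp4 window (chr3:10204567-10204866) lies in a long peak over an induced gene. The Kif26b window (chr1:178528626-178528925) lies in the promoter of the gene with the largest of the 10 falls described with the expression results. The last 2 hold the motifs that set apart a subset of the members: NRF1 at the noncoding gene 9330133O14Rik (chr8:122443608-122443907) and AP-1 in an intergenic peak near Tob2 (chr15:81846828-81847127).
Rnf220: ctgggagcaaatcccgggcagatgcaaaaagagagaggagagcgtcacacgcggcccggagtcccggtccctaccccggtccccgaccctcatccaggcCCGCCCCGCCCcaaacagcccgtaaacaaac
Mir22hg: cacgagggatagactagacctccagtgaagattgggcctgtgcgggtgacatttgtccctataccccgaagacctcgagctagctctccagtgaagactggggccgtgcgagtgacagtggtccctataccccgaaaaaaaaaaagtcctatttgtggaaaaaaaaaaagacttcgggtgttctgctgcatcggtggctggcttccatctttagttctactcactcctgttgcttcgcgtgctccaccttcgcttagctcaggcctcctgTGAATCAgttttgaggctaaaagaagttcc
Fabp4: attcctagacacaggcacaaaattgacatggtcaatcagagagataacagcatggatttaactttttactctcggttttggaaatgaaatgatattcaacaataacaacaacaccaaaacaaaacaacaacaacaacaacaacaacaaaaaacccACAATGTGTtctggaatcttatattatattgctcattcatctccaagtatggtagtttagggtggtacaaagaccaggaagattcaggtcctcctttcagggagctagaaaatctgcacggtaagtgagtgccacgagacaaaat
Kif26b: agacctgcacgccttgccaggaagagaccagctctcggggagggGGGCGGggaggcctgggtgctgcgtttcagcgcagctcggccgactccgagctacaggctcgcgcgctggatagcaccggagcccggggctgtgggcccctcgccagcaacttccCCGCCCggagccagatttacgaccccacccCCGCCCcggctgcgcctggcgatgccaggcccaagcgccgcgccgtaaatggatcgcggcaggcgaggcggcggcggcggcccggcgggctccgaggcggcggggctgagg
9330133O14Rik: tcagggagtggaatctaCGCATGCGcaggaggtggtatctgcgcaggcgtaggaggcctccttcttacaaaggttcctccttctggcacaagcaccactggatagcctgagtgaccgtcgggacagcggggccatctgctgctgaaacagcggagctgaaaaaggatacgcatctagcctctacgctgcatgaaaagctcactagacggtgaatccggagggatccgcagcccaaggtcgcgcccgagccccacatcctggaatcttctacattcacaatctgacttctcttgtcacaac
Tob2: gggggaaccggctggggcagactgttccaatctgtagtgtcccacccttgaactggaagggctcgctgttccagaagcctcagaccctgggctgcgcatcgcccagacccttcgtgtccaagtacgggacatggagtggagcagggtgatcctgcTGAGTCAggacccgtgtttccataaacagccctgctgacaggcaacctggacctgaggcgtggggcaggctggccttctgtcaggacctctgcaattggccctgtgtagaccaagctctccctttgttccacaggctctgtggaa

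The day 7-only peaks were weaker and narrower than the shared ones, and more of them lay away from promoters. The score is the authors' own value for each peak, and its median was 109 for day 7-only peaks and 183 for shared peaks. The median width was 1074 bp for day 7-only peaks and 1330 bp for shared peaks. A peak centre lay within 1 kb of a transcription start site for 4659 (81.1%) of the day 7-only peaks and for 2336 (91.4%) of the shared peaks. Centres 1 to 10 kb away made up 9.08% of day 7-only and 5.13% of shared peaks, and centres over 10 kb away made up 9.85% and 3.48%. By annotation, the centres of day 7-only peaks were intergenic in 33.6%, in an untranslated exon in 30.9%, in an intron in 22.5% and in a coding exon in 11.2%. The median GC content was 58.3% in day 7-only peaks and 60.3% in shared peaks.

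The weaker a day 7 peak, the more often it was missing at day 0. Of the day 7 peaks with a score of 50 to 75, 86.2% were day 7-only, and of those with a score of at least 300, 33.6% were. At the edge of the rule, 10 day 7-only peaks had a day 0 peak within 100 bp, with a median score of 97.1, and 11 shared peaks overlapped a day 0 peak by at most 100 bp, with a median score of 69.8. These values come from the lists that chose the members and are given as a description.

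The labelled cells gave LSD1 lists that the choice did not use, and most day 7-only positions were in both. A peak of labelled cells at day 7 overlapped 5539 (96.4%) of the day 7-only peaks, against 99.5% of the shared peaks. A peak of labelled cells at day 0 overlapped 4864 (84.6%) of them, against 95.7% of the shared peaks. Those lists are long: the start site of 78.2% of all tested genes was covered by the labelled day 7 list and of 69.7% by the labelled day 0 list, against 57.6% for control day 7 and 21.8% for control day 0. The overlap with the labelled day 0 list was 70.1% for day 7-only peaks with a score of 50 to 75 and 93.3% for those with a score of at least 300.

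**Figure D1:**
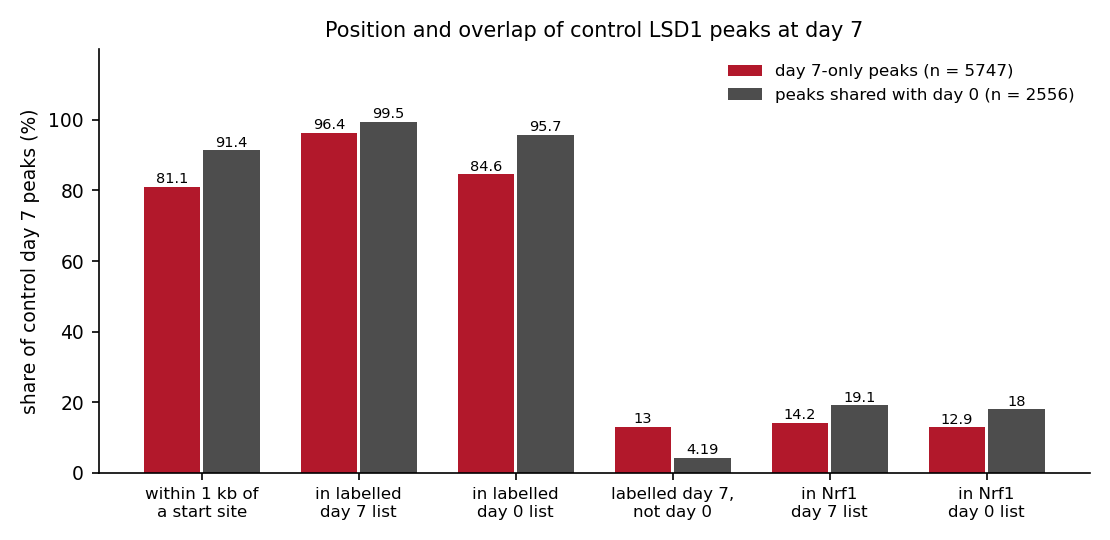
Bars give the share (percent, vertical axis) of the 5747 day 7-only peaks (red) and the 2556 shared peaks (grey) near a start site or overlapping another list. The overlap with labelled day 0 peaks was 84.6% for day 7-only and 95.7% for shared peaks.

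A smaller class was called at day 7 and not at day 0 in both control and labelled cells. Peaks of labelled cells at day 7, with none at day 0, lay over 746 (13.0%) of the day 7-only peaks and 107 (4.19%) of the shared peaks. This class made up 10.3% of the day 7-only peaks within 1 kb of a start site, 20.9% of those 1 to 10 kb away and 27.9% of those over 10 kb away. Another 71 day 7-only peaks (1.24%) lay over a labelled peak of day 0 and none of day 7, and 137 (2.38%) lay over neither. With 1 library per list, these shares carry no replicate error.

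Nrf1, a factor that binds promoters of mitochondrial and housekeeping genes, was called at 818 (14.2%) of the day 7-only peaks at day 7 and at 12.9% of them at day 0. The shares of shared peaks were 19.1% at day 7 and 18.0% at day 0. Among all tested genes, the start site was covered by an Nrf1 peak for 12.3% at day 7 and 10.8% at day 0. Of the day 7-only peaks over an Nrf1 day 7 peak, 14.1% held the NRF1 letters CGCATGCG in the 300 bases around the centre, against 1.36% of those over no Nrf1 peak. The 9330133O14Rik window printed above is a high-scoring example with the motif and no coding-transcript exon, chosen after the values were seen.

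Motifs were searched as exact letters on both strands of the 300 bases around each peak centre, and matches to different motifs could overlap. Promoter and distal members differed in them. The SP/KLF letters GGGCGG were in 69.7% of day 7-only peaks within 1 kb, 70.2% of shared peaks within 1 kb, 26.8% of day 7-only peaks farther away and 35.7% of the 32851 RefSeq promoters of the same length. The ETS letters CCGGAAG were in 18.7% of day 7-only and 15.6% of shared peaks within 1 kb, and in 8.86% of RefSeq promoters. The AP-1 letters TGANTCA, which Fos and Jun dimers bind, were in 14.9% of distal day 7-only peaks, 2.92% of those within 1 kb and 7.81% of RefSeq promoters. The Tob2 window above, 11349 bp from the start site of Tob2, is a high-scoring example of a distal peak with these letters. It was chosen among windows with no coding-transcript exon. The TEAD letters GGAATG were in 16.1% of distal day 7-only peaks and 14.7% of RefSeq promoters, and the C/EBP letters TTGCNNAA in 10.4% and 10.8%. The glucocorticoid receptor letters ACANNNTGT were in 8.82% of distal day 7-only peaks and 6.85% of RefSeq promoters, and the PPAR letters GGNCAAAGG in 1.75% and 1.87%. Shared peaks farther than 1 kb, 220 in number, held the AP-1 letters in 7.27%, TEAD in 11.4% and C/EBP in 7.27%. These distal shared peaks held the glucocorticoid receptor letters in 5.45%, PPAR in 2.73% and SP/KLF in 44.5%. In day 7-only peaks within 1 kb, the YY1 letters AAGATGGCG were in 4.42%, the CRE letters TGACGTCA in 2.75%, the EBF letters CCCNNGGG in 22.6% and the GFI1 letters AATCACNGC in 0.58%, against 4.2%, 2.1%, 23.1% and 0.813% of shared peaks within 1 kb and 1.4%, 1.79%, 13.7% and 0.919% of RefSeq promoters. The NRF1 letters were in 3.69% of day 7-only peaks within 1 kb, 2.83% of shared peaks within 1 kb and 1.87% of RefSeq promoters. Tandem repeats can hold the TEAD letters, as in the Arid1b peak described with the expression results, and such peaks count as matches. A match describes the sequence and is not evidence of binding.

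Genes near a day 7-only peak were higher about as often as they were lower. The 5747 day 7-only peaks had 5211 different nearest genes, of which 4991 passed the filter on low counts. At day 7 against day 0 in control cells, 1240 of these (24.8%) were higher and 1259 (25.2%) were lower at an adjusted p under 0.05 in edgeR's quasi-likelihood test with Benjamini-Hochberg adjustment over 13356 genes. Among all genes tested, 23.7% were higher, 24.6% were lower and 48.3% changed in either direction, so the members' shares lie near the background. The median log2 change was 0.01 for the nearest genes of day 7-only peaks, -0.04 for those of shared peaks and -0.01 for all tested genes. The nearest genes of shared peaks were higher in 22.4% and lower in 29.0%. All RNA came from bulk cultures, in which fewer cells of a type and less RNA per cell cannot be told apart. The titles call the replicates biological without saying whether they were separate cultures. The p-values and SE rest on the spread within control and labelled groups fitted together, not within the control samples alone. With the 6 control libraries fitted alone, 66.4% of all genes in that fit changed in either direction.

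Day 7-only and shared promoter peaks were both more frequent at genes with a higher level. The median level of the nearest genes was 14.1 CPM per kb of transcript at day 7, against 16.9 CPM per kb for those of shared peaks, 9.45 CPM per kb for all tested genes and 3.12 CPM per kb for genes without a control day 7 peak within 1 kb. Among tested genes ordered by their level at day 7 and divided into 5 equal groups, the share with a day 7-only promoter peak was 11.4% in the lowest group, 38% in the next, and then 46.8%, 48.5% and 47.4%. For shared peaks it was 5.09% in the lowest and 31.2% in the highest group. Ordered by the level at day 0, the day 7-only share was 11.5% in the lowest and 46.6% in the highest group. Genes with the largest changes had few: 13.8% of the 557 genes that rose by more than 2 on the log2 scale had a day 7-only promoter peak, against 6.57% of the 289 that fell by more than 2 and 38.4% of all tested genes.

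**Figure D2:**
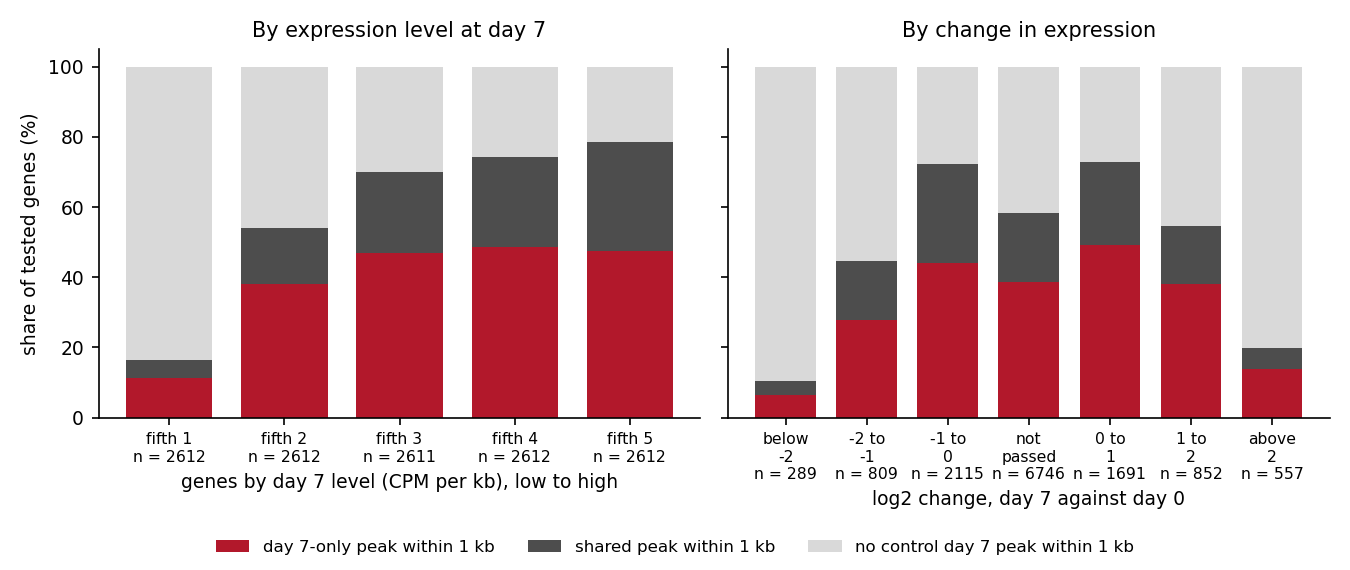
Stacked bars give the share (percent) of tested genes with a day 7-only peak (red), a shared peak (dark grey) or no control day 7 peak (light grey) within 1 kb of a start site, by level at day 7 (left, 5 equal groups) and by log2 change at day 7 against day 0 (right, genes that did not pass the test in the middle). The day 7-only share was 47.4% in the highest group by level and 13.8% among genes that rose by more than 2 on the log2 scale.

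Of the genes at the 10 highest-scoring promoter peaks, 3 were higher, 2 were lower, 4 did not pass the test and 1 had no counts. The shares over all tested genes were 23.7% higher and 24.6% lower. Rnf220, a ubiquitin ligase, had 19.6, 22.3 and 19.7 CPM at day 7 and 26.6, 32.2 and 28.0 CPM at day 0, lower in every day 7 library (log2 change -0.50 ± 0.11 SE, edgeR adjusted p = 0.00317). Ubtf, a factor of ribosomal RNA transcription, had 143, 134 and 148 CPM at day 7 and 197, 201 and 208 CPM at day 0 (log2 change -0.51, adjusted p = 0.000476 in edgeR). Mir22hg, the host transcript of a microRNA, had 12.9, 13.8 and 14.7 CPM at day 7 and 9.97, 7.49 and 7.46 CPM at day 0 and was higher (log2 change 0.73). Rgs2, a brake on G protein signalling, had 266, 252 and 249 CPM at day 7 and 49.6, 47.7 and 47.5 CPM at day 0, with no overlap between days (log2 change 2.40). Txnip, which restrains glucose uptake, had 610, 562 and 608 CPM at day 7 and 285, 294 and 307 CPM at day 0 (log2 change 1.01). Ppp4c, a phosphatase subunit, had overlapping days, and Ppia, Slc20a1 and Ubb did not pass the test. The strongest promoter peak lay over Hspa8, a constitutive chaperone, and was assigned to Snord14c, a small RNA of its introns that had no counts. Ppia, Ubb and Hspa8, and Mt1 described next, have near-identical copies or pseudogenes, so their counts are uncertain.

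Of the 10 genes nearest to the highest-scoring peaks whose centre lay farther than 1 kb from a start site, 9 were higher at day 7 and 1 was lower, against 23.7% higher and 24.6% lower over all tested genes. The peaks of Ddit4, Mt1, Hmox1, Id1, Fabp4 and Lpl were wide enough to hold the gene's own start site. Ddit4, a stress- and glucocorticoid-induced inhibitor of mTORC1, had 153, 152 and 174 CPM at day 7 and 34.0, 33.8 and 35.1 CPM at day 0 (log2 change 2.22 ± 0.09, edgeR adjusted p = 2.58e-09). Mt1, a metal-binding metallothionein, had 1695, 1894 and 1209 CPM at day 7 and 492, 586 and 508 CPM at day 0 (log2 change 1.60). Id1, an inhibitor of basic helix-loop-helix factors, had 169, 163 and 174 CPM at day 7 and 51.4, 64.8 and 54.4 CPM at day 0 (log2 change 1.57). The chaperone Hspa5 had 926, 939 and 1080 CPM at day 7 and 600, 696 and 647 CPM at day 0. Its log2 change was 0.60 (adjusted p = 0.0283 in edgeR). Hspa5 missed the threshold whenever any 1 of the 6 control libraries was left out (adjusted p of 0.0503 to 0.0979 in edgeR). It passed with the 6 control libraries fitted alone (edgeR adjusted p = 5.69e-06) and in DESeq2 (Wald test, adjusted p = 0.018). The highest score of all, 2088, belonged to a peak 369 kb from Arid1b, a chromatin remodelling subunit, in sequence that was 39.9% repeat-masked. The 300 bases around its centre were a tandem repeat of the units CATTC and CACTC. Arid1b was lower, at 99.2, 98.2 and 83.2 CPM at day 7 and 134.1, 117.8 and 145.5 CPM at day 0 (log2 change -0.50). At this distance the gene is only the nearest one.

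Day 7-only peaks, alone or together, covered all or most of some genes. Such genes were not all induced, as Hspa8, Jun and Eef2 show, named after their values were seen. Day 7-only peaks covered 100% of Hspa8, which did not pass the test (log2 change -0.09), 97% of Jun, which was lower (-1.19), and 76.3% of Eef2, which was lower too (-0.57). Counts of Hspa8 and Eef2 are uncertain because of near-identical copies. Bcl9l, with 5 peaks over 23.2% of the gene, did not pass either. Of the 32 tested genes with at least 3 kb covered, 15 (46.9%) were higher and 8 (25%) lower. Over all tested genes, 23.7% were higher and 24.6% lower. At Fabp4, the fatty acid carrier of adipocytes, 1 peak of 8625 bp (chr3:10200404-10209028) covered the entire gene. Fabp4 had 4261, 3528 and 5261 CPM at day 7 and 8.09, 9.42 and 18.0 CPM at day 0 (log2 change 8.52 ± 0.35, edgeR adjusted p = 2.15e-09). The labelled list of day 7 covered 100% of Fabp4 and that of day 0 covered none. Agt, which encodes angiotensinogen, had 5 day 7-only peaks over 74.1% of the gene, while labelled peaks covered 99.8% at day 7 and none at day 0. Its control levels were 2618, 2392 and 2284 CPM at day 7 and 136, 168 and 165 CPM at day 0 (log2 change 3.96). Lpl, the lipase that frees fatty acids from lipoproteins, had 6 peaks over 40.8% of the gene, and labelled peaks covered 97.7% at day 7 and 34.9% at day 0. Lpl had 4792, 4441 and 4352 CPM at day 7 and 679, 594 and 758 CPM at day 0 (log2 change 2.74).

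At Ero1a and Hmox1 the labelled list of day 7 covered less of the gene than the day 7-only peaks did. Ero1a, an oxidase for disulfide bonds in the endoplasmic reticulum, carried 15 day 7-only peaks over 56.4% of the gene, the most of any gene, and a shared promoter peak. Labelled peaks covered only 2.19% of it at day 7 and 2.27% at day 0. Control cells had 265, 298 and 279 CPM of Ero1a at day 7 and 54.6, 55.9 and 63.6 CPM at day 0 (log2 change 2.27 ± 0.47, edgeR adjusted p = 0.00161). Labelled cells had 1808, 1945 and 1661 CPM at day 7 and 32.0, 208 and 209 CPM at day 0, where replicate 1 stood apart from the other two. The longest day 7-only peak, of 11052 bp, covered all of Hmox1, the heme-degrading enzyme, and labelled peaks covered 23.4% of Hmox1 at day 7 and 100% at day 0. Hmox1 had 542, 664 and 507 CPM at day 7 and 254, 279 and 266 CPM at day 0 in control cells (log2 change 1.10). Labelled and control levels were not tested against each other here.

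**Figure D3:**
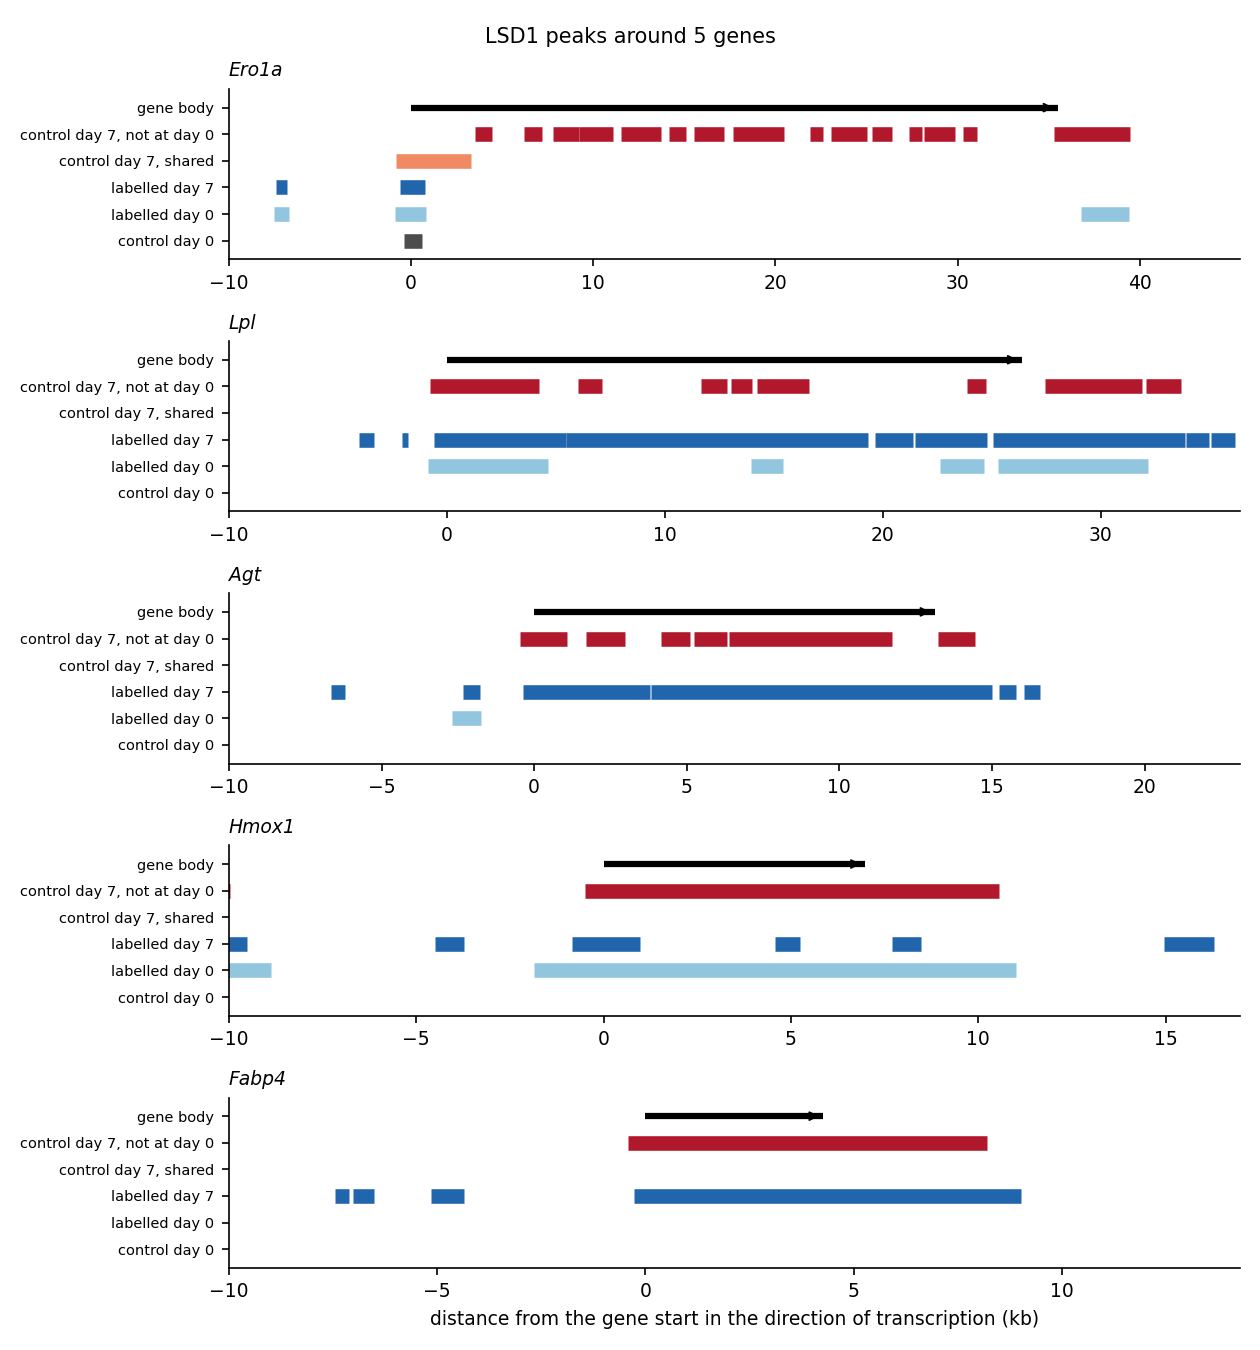
Peaks of the LSD1 lists along 5 genes, with distance from the transcription start site (kb) on the horizontal axis and a row per list. The 5 genes were among the named genes, and black arrows mark the gene bodies. Day 7-only peaks covered 100% of Fabp4 and Hmox1, 74.1% of Agt, 56.4% of Ero1a and 40.8% of Lpl.

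Wide peaks as a class were chosen after their values had been seen and are described only. Of the 40 day 7-only peaks of at least 3 kb, 33 nearest genes were tested, and 21 (63.6%) were higher and 4 (12.1%) lower at day 7. The shares over all tested genes were 23.7% and 24.6%. Wide peaks over Hspa8 (log2 change -0.09, not passed) and Eef2 (-0.57, lower) were assigned to the small RNAs Snord14c and Snord37. Both small RNAs fell below the filter, so Hspa8 and Eef2 are not in these counts. Shared peaks of that width had 78 tested genes, of which 24 (30.8%) were higher and 33 (42.3%) lower. The nearest genes of wide day 7-only peaks had a median of 75.7 CPM per kb at day 7 and 43.1 CPM per kb at day 0. Klf9, a glucocorticoid-induced zinc finger factor, had 94.4 ± 7.51 CPM at day 7 and 31.6 ± 1.13 CPM at day 0 (SD, n = 3 each). The glycolytic gene Aldoa had 2442 ± 33.2 CPM at day 7 and 832 ± 92.8 CPM at day 0. Zfp703, a transcriptional repressor, went the other way, with 99.5 ± 12.7 CPM at day 7 and 174 ± 10.2 CPM at day 0.

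**Figure D4:**
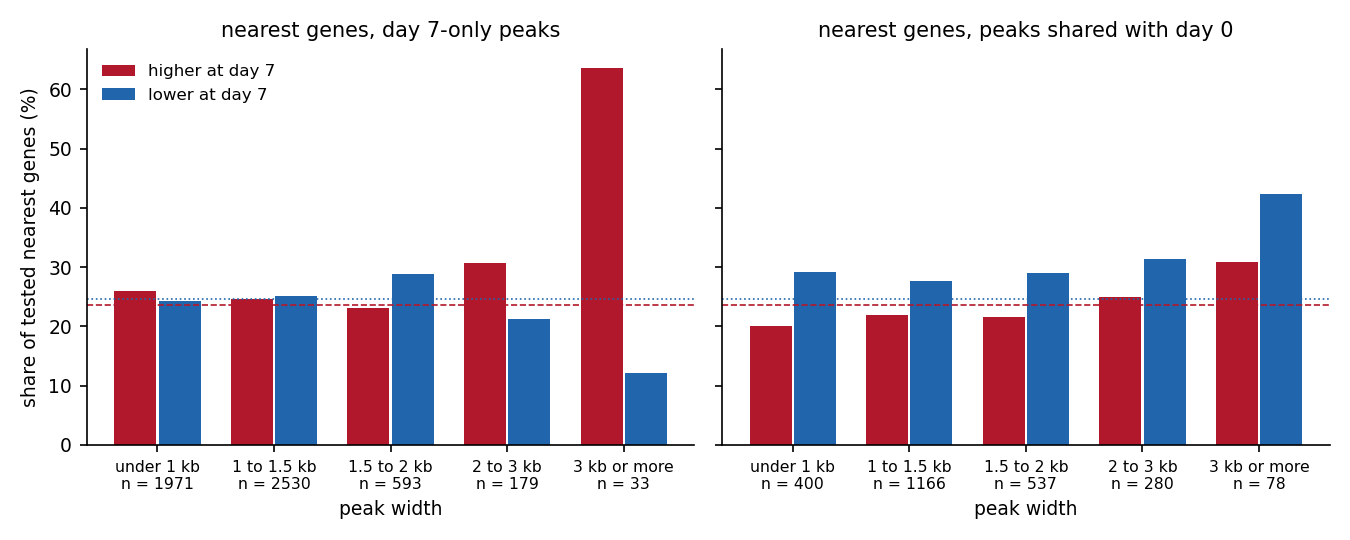
Bars give the share (percent) of tested nearest genes higher (red) or lower (blue) at day 7 in control cells, by peak width, for day 7-only peaks (left) and shared peaks (right), and horizontal lines give the shares over all tested genes (23.7% higher, 24.6% lower). At 3 kb or more, 63.6% were higher for day 7-only peaks and 30.8% for shared peaks.

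Among genes that averaged 10 CPM or more in control cells, the 10 largest rises within 10 kb of a day 7-only peak spanned log2 changes of 4.60 to 8.62, with Fabp4 among them. Mrap, an accessory protein of the melanocortin 2 receptor, had 53.7, 50.6 and 42.4 CPM at day 7 and 0, 0.121 and 0.238 CPM at day 0, under a peak with a score of 57.4. Lcn2, a siderophore-binding lipocalin, had 646, 712 and 573 CPM at day 7 and 2.16, 2.86 and 2.58 CPM at day 0 (log2 change 7.99 ± 0.24, edgeR adjusted p = 3.23e-10). G0s2, an inhibitor of adipose triglyceride lipase, had 165, 144 and 145 CPM at day 7 and 1.06, 0.282 and 0.714 CPM at day 0. Dgat2, the enzyme of the last step of triglyceride synthesis, had 239, 213 and 243 CPM at day 7 and 3.53, 4.51 and 4.92 CPM at day 0. The mitophagy receptor Bnip3 had 334, 320 and 295 CPM at day 7 and 11.7, 13.5 and 13.8 CPM at day 0. The other rises were in Fam83a, A530016L24Rik, Ifi207 and Orm3, with log2 changes of 7.21, 6.93, 6.32 and 5.00.

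Among the same well-expressed genes (an average of 10 CPM or more), the 10 largest falls spanned log2 changes of -2.48 to -2.87, smaller in size than the 10 largest rises. Kif26b, a kinesin family member, had 6.24, 5.47 and 6.66 CPM at day 7 and 49.2, 39.8 and 45.4 CPM at day 0 (log2 change -2.87 ± 0.17, edgeR adjusted p = 4.73e-08). Tpm1, a tropomyosin of actin filaments, had 156, 181 and 168 CPM at day 7 and 921, 1025 and 935 CPM at day 0. Cnn2, an actin-binding calponin, had 100, 93.4 and 109 CPM at day 7 and 591, 684 and 618 CPM at day 0. The guidance factor Slit2 had 52.7, 58.2 and 53.4 CPM at day 7 and 342, 298 and 346 CPM at day 0. Efnb2, an ephrin ligand, had 16.5, 21.4 and 17.8 CPM at day 7 and 128, 109 and 136 CPM at day 0 beside 3 day 7-only peaks. Gfod1, Etv5, Mn1, Tm4sf1 and Slc9a3r2 had log2 changes of -2.77, -2.67, -2.66, -2.51 and -2.48. The peaks of Kif26b, Tm4sf1 and Slc9a3r2 had no counterpart in the labelled day 7 list, and that of Kif26b had none at day 0 either. Their scores were 50.43, 50.05 and 61.53, where the lowest score of a day 7-only peak was 50.

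**Figure D5:**
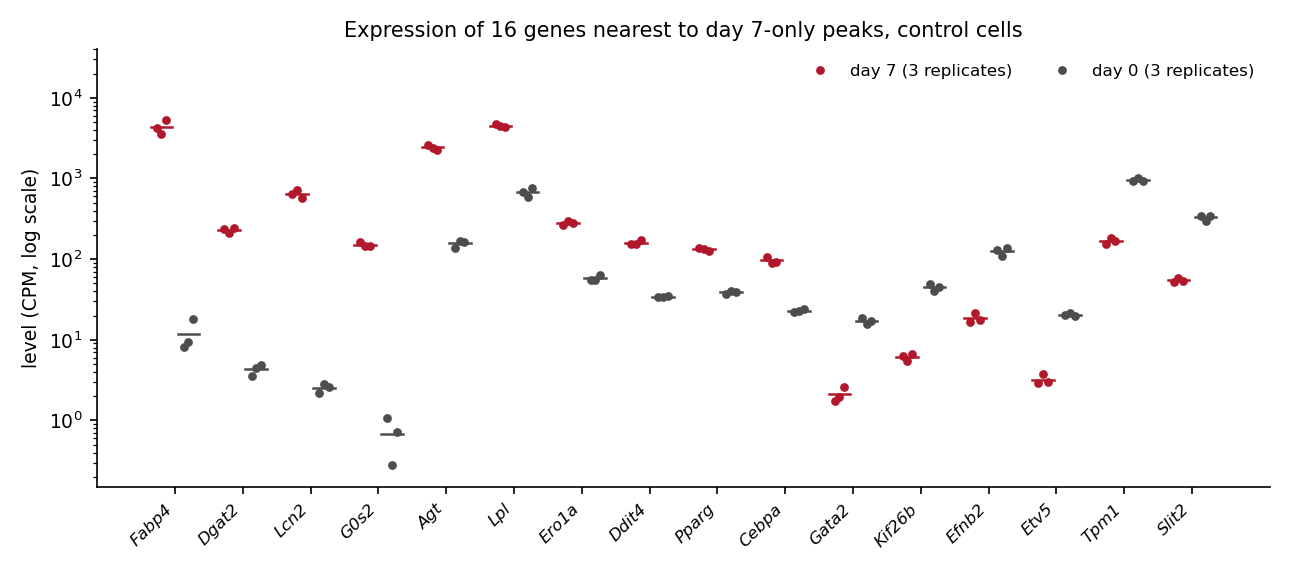
Level (CPM, log axis) of 16 genes nearest to a day 7-only peak in control cells, with 1 point per library (red, day 7; grey, day 0) and a line at the mean of 3. Fabp4 sits between 3528 and 5261 CPM at day 7 and between 8.09 and 18.0 CPM at day 0, and Kif26b between 5.47 and 6.66 CPM at day 7 and between 39.8 and 49.2 CPM at day 0.

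Among the transcription factors of fat cell differentiation, 15 genes of the list of 24 were nearest to a day 7-only peak, and 8 were higher and 3 lower. Of the other 9, 3 were higher and 4 lower. All gene list counts here and below stand against 23.7% higher and 24.6% lower over all tested genes. Counts from the 6 control libraries fitted alone stand against 34.3% higher and 32.1% lower over the 12933 genes of that fit. Pparg had a peak 31 bp from a start site and 139, 133 and 127 CPM at day 7, against 37.3, 39.8 and 38.9 CPM at day 0 (log2 change 1.78, edgeR adjusted p = 4.65e-07). Cebpa, its partner, had 2 peaks and 108, 89.8 and 92.4 CPM at day 7, against 21.9, 22.7 and 23.9 CPM at day 0 (log2 change 2.08). Foxo1, an insulin-regulated factor, had 133, 127 and 114 CPM at day 7 and 40.9, 36.6 and 40.9 CPM at day 0 (log2 change 1.66). Gata2, which opposes fat cell differentiation, had 1.74, 1.95 and 2.62 CPM at day 7 and 18.4, 15.9 and 17.3 CPM at day 0 (log2 change -3.03). Nr2f2 was lower too, with 65.6, 72.6 and 59.0 CPM at day 7 and 139, 111 and 130 CPM at day 0. Cebpb had no day 7-only peak.

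All 13 genes of the adipocyte program that were nearest to a day 7-only peak were higher, with a median log2 change of 3.18, as were 14 of the 16 tested genes of the list that were not, with a median of 7.29. Besides Fabp4, Lpl and Dgat2 they included the lipase Pnpla2, with 711, 649 and 584 CPM at day 7 and 36.1, 44.5 and 39.0 CPM at day 0. Adipoq and Plin1 had no day 7-only peak. Of 7 preadipocyte and fibroblast genes near such a peak, 5 were lower and none was higher, with a median log2 change of -0.85. In the rest of the list, 11 of 14 were lower and 1 higher, with a median of -1.65. The collagen gene Col1a2 had 4591, 4273 and 4812 CPM at day 7 and 10710, 11450 and 11680 CPM at day 0, with the peak 48349 bp away.

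Of 15 oxidative phosphorylation and citric acid cycle genes nearest to a day 7-only peak, 8 were higher and none lower, with a median log2 change of 0.43. In the rest of that list, 11 of 12 were higher, with a median of 0.84. When the 6 control libraries were fitted alone, 14 of the 15 were higher, beside 34.3% of all genes in that fit. Cs, citrate synthase, had 608, 567 and 600 CPM at day 7 and 358, 388 and 374 CPM at day 0 (log2 change 0.67). Of 9 fatty acid oxidation genes nearest to such a peak 8 were higher and 1 lower, and in the rest of the list 4 of 7 were higher. Acadm, an acyl-CoA dehydrogenase, had 402, 365 and 409 CPM at day 7 and 75.3, 79.1 and 81.1 CPM at day 0. Cpt1a, which admits fatty acids to mitochondria, was lower, with 68.5, 63.9 and 70.0 CPM at day 7 and 146, 140 and 144 CPM at day 0. Of 4 thermogenic genes 3 were higher, and 7 of 12 in the rest of the list. The coactivator Ppargc1a had 61.1, 58.6 and 47.9 CPM at day 7 and 30.0, 26.6 and 29.4 CPM at day 0. Ucp1 had no day 7-only peak.

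Of 9 glucocorticoid and cyclic AMP response genes nearest to a day 7-only peak, 7 were higher and none lower, and in the rest of the list 5 of 6 were higher and 1 lower. Fitting the 6 control libraries alone gave 7 higher and 1 lower. Tsc22d3, a glucocorticoid-induced leucine zipper protein, had 257, 258 and 312 CPM at day 7 and 38.2, 40.8 and 41.8 CPM at day 0. Zbtb16 had 63.0, 43.6 and 55.9 CPM at day 7 and no counts at day 0, at least 1370-fold higher against a floor of 3 counts over the group. Fos and Nr4a1 did not pass the test. Of 5 interferon response genes 4 were higher and none lower, with 7 of 13 higher in the rest of the list, and the 6 control libraries alone gave 4 higher and 1 lower. The antiviral GTPase Mx2 had 10.5, 10.4 and 15.5 CPM at day 7 and 3.42, 2.26 and 2.18 CPM at day 0. All 3 inflammation genes were higher, as were 5 of 10 in the rest of the list. Nos2, with 5.21, 7.74 and 4.91 CPM at day 7 and no counts at day 0, was at least 149-fold higher against the same floor. Of 4 cell cycle genes 3 were lower, and 12 of 17 in the rest of the list. E2f1 had 30.2, 30.0 and 31.0 CPM at day 7 and 65.0, 61.0 and 61.1 CPM at day 0.

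Most genes of the LSD1 complexes did not pass the test. Of 9 genes of its complexes nearest to a day 7-only peak 8 were tested, of which 1 was lower and none higher, and in the rest of the list 2 of 12 were higher and 4 lower. Gse1 passed, lower at 79.3, 76.8 and 73.3 CPM at day 7 and 101.8, 85.9 and 98.3 CPM at day 0. Its log2 change was -0.32 (edgeR adjusted p = 0.0273). Gse1 missed the threshold when any control replicate but day 0 replicate 2 was left out (adjusted p of up to 0.101 in edgeR). It also missed with no filter on low counts (edgeR adjusted p = 0.0588). It passed with the 6 control libraries fitted alone (edgeR adjusted p = 0.00734) and in DESeq2 (Wald test, adjusted p = 0.00505). Genes of the complexes that did not pass included Hdac1, Hdac2, Rcor3, Phf21a, Chd4 and Mta2. Kdm1a had no day 7-only peak, and Rcor1 and Nrf1 each had a shared promoter peak.

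Members were also divided by the labelled lists, with no test between the classes. For day 7-only peaks over a labelled day 7 but no labelled day 0 peak, 187 of 636 tested nearest genes (29.4%) were higher and 148 (23.3%) lower. By distance, 27.8% were higher and 23.8% lower within 1 kb, 43.4% and 15.7% of 83 genes at 1 to 10 kb, and 28.4% and 26.5% over 10 kb. For day 7-only peaks over a labelled day 0 but no labelled day 7 peak, 13 of 70 tested genes (18.6%) were higher and 34 (48.6%) lower. The background was 23.7% higher and 24.6% lower, and the classes were not tested against it. For day 7-only peaks over an Nrf1 day 7 peak, 22.0% of 805 tested genes were higher and 23.4% lower. Genes nearest to 3 or more day 7-only peaks numbered 59, and of the 54 tested 23 (42.6%) were higher and 11 (20.4%) lower.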

How the data were processed

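LSD1 and Nrf1 peak lists and RNA counts of 3T3-L1 cells were taken as deposited. The authors deposited 1 peak list per ChIP library, with a peak score, and per the submitters' processing notes used Bowtie2 and MACS 1.41 on mm10, while the labels' protocols name bowtie. The ChIP control, calling threshold and read depth are not given in the sources used here, and input samples were not analysed here. RNA files hold whole-number counts per RefSeq transcript, deposited by the authors. For RNA the same notes name TopHat2, HOMER, edgeR and DESeq 1.8.3, with no order, and strand use in counting is not given in the sources used here. One transcript per gene, that with the highest mean count, was kept. Rows with no gene name held 0.896% of counts. Overlaps of at least 1 bp used bedtools 2.31.1. Distances run from the peak centre to the nearest RefSeq start site of a counted gene.

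Counts were filtered with filterByExpr, scaled by TMM and fitted with edgeR 4.0.16 (R 4.3.3), a robust quasi-likelihood fit of 4 groups in 12 libraries. Control day 7 was tested against control day 0, two-sided, with Benjamini-Hochberg adjustment over 13356 genes and a threshold of 0.05, and SE means the standard error of the log2 change. DESeq2 1.42.0 was an alternative. Other work used Python 3.11.15, pandas 2.3.3 and matplotlib 3.10.9. Named genes were the nearest genes of the 10 highest-scoring peaks within 1 kb and the 10 farther away, the 10 largest rises and 10 largest falls within 10 kb with a mean of at least 10 CPM and days that did not overlap, up to 3 genes per list and direction, the 5 genes with most peaks, and a list of regulators and markers. Members, lists and rules were chosen with earlier results of these data known. Other genes named for wide peaks, and the 9330133O14Rik and Tob2 sequences, were chosen after their values were seen. Total counts limit the precision of low genes. Some results are not reported here.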

Additional observations from a re-analysis of the deposited data

How the results depend on the processing

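The replicate numbers did not pair the control libraries: the correlations of same-numbered deviations were 0.076, 0.004 and -0.046. With the replicate block, fitted in the 6 control libraries, 8635 genes were called, 34.5% higher and 32.3% lower. Of the tested nearest genes, 1816 (36.5%) were higher and 1643 (33.1%) lower. The 6 control libraries fitted without the block gave 8592 calls of 12933 genes, 34.3% higher and 32.1% lower. There, 1811 tested nearest genes (36.4%) were higher and 1615 (32.5%) lower. Leaving out 1 control replicate at a time gave 984 to 1066 nearest genes higher, or 19.6% to 21.3% of those tested. It gave 1023 to 1104 nearest genes lower (20.4% to 22.1%). Promoter genes numbered 990 to 1084 higher (19.4% to 21.2%) and 953 to 1037 lower (18.7% to 20.3%). Calls over all genes numbered 5249 to 5499, with 18.7% to 20% higher and 19.8% to 20.9% lower. The nearest genes had a median log2 change of -0.01 to 0.01. That median was -0.01 with RLE scaling, -0.01 with DESeq2, 0.02 with no filter, 0.05 in the control libraries alone and 0.05 with the replicate block. Keeping only scores of at least 100 left 3186 day 7-only peaks. Of their 2970 tested nearest genes, 746 (25.1%) were higher and 736 (24.8%) lower. Of their 3156 tested promoter genes, 788 (25%) were higher and 738 (23.4%) lower. Over all genes tested in the same fit of 12 libraries, 23.7% were higher and 24.6% lower. Of the 3186 peaks, 88.4% lay within 1 kb of a start site. Their overlaps were 99.3% with labelled day 7, 92% with labelled day 0, 17.0% with Nrf1 day 7 and 15.2% with Nrf1 day 0. The promoter share was 84.7% with a window of 2.5 kb, 82.7% measured from peak edges and 79.7% with protein-coding genes only. Asking for more of the peak to be covered (at least 0.5 of its length) gave 93.0% for labelled day 7, 12.6% for Nrf1 day 7 and 10.8% for Nrf1 day 0. Of 852 pairs of a named gene and an alternative, 833 kept direction and side of the threshold, 14 no longer passed (Hspa5, Gse1, Ebf1), 5 newly passed (Slc20a1, Ubb) and 0 reversed. The cause of these shifts was not tested. Peak shares rest on 1 library per list.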
